A study of Mus musculus with 132 samples.

Results

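Of 44513 CTCF peaks called in 416B cells, 7843 were distal sites that were open in mesoderm only. A CTCF peak was counted as distal where its midpoint lay over 2 kb from each of the 24961 gene starts taken from the count table, which left 40049 peaks. It was counted as open in mesoderm only where it shared at least 1 bp with a wild-type Flk1+ ATAC-seq peak and none with a wild-type CD41+ ATAC-seq peak. These sites made up 19.6% of the distal CTCF peaks (95% Wilson interval 19.2 to 20.0%, counting error only). A further 3727 distal peaks were open at both stages, 673 were open in HPCs only and 27806 overlapped neither list. The rule used the CTCF list of 416B cells, accessibility at these stages and position, and not accessibility in undifferentiated cells. The expression of nearby genes is described apart from it, whereas the CTCF motif and the width of the CTCF peak are tied to the CTCF list.

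CTCF is a zinc finger protein that binds a long, directional DNA motif and stops the cohesin complex as it extrudes chromatin loops. Pairs of bound sites mark the borders of topologically associating domains (TADs), and sites close to promoters can bring distant enhancers into contact with them. Most CTCF binding is shared between cell types, whereas accessibility around a site can change as cells differentiate. In the mouse embryo, Flk1+ mesoderm gives rise to endothelium and blood, and CD41 marks the first hematopoietic progenitor cells (HPCs) that emerge from it.

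The cells were wild-type E14-TG2a mouse embryonic stem cells (mESCs, strain 129/Ola) and their derivatives, with Flk1+ mesoderm sorted at day 4 of differentiation and CD41+ HPCs at day 7. The ATAC-seq peaks were called on merged reads of 4 mesoderm libraries (2 biological replicates with 2 technical replicates each) and of 2 HPC libraries that are technical replicates of 1. By the study's methods these ATAC-seq cells carried a Venus reporter at Runx1 and a reporter transgene of the Runx1 +23 enhancer in Col1a1. CTCF was mapped in 2 merged ChIP-seq replicates of 416B, an immortalized mouse myeloid progenitor line of (C57BL/6xDBA/2)F1 origin. Expression was measured by sequencing RNA depleted of poly(A) transcripts, rich in nascent RNA, in 2 undifferentiated, 3 mesoderm and 4 HPC wild-type libraries. Mesoderm was also measured in 3 P1-CTCF-KO and 3 P2-CTCF-KO libraries, in which CRISPR/Cas9 had removed the CTCF site near one of the Runx1 promoters, P1 (distal) or P2 (proximal). Each of 3 clones (B9.3, C6.1, C8.1) gave a wild-type mesoderm and an HPC library, B9.3 gave a second HPC library (B9.3-2), and the undifferentiated pair are technical replicates by their labels. P-values therefore measure the spread between these libraries.

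Whether CTCF occupied these sites in mesoderm was not measured, since the list comes from 416B cells. A site that is not open in HPCs is one without a called peak there. The mesoderm list holds 76766 peaks and the HPC list 29037, with median widths of 114 and 113 bp, and neither gives a height or a read count. The lists were called on different numbers of libraries, so a real loss of accessibility and a smaller peak list cannot be told apart at any single site.

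The libraries matched their labels at most markers. In HPCs, Kdr (which encodes Flk1), T, Eomes and Pdgfra were lower than in mesoderm, and Itga2b (which encodes CD41), Runx1, Gfi1b and Tal1 were higher by edgeR's test. Kit was not called (log2 fold change -0.96, adjusted p = 0.25), and Mesp1 had too few counts to be tested. Total counts ran from 8293575 to 24406998 per library. The mesoderm library of clone B9.3 stood apart in endothelial genes. Cdh5, an adhesion molecule of endothelial junctions, was at 37.1 CPM (counts scaled to the TMM-adjusted library size) there and at 0.491 and 3.47 CPM in the other mesoderm libraries. The list of blood and endothelial genes summed to between 76.9 and 318 CPM across mesoderm libraries and to between 413 and 809 CPM in HPCs. The mesoderm library of clone C6.1 had the lowest TMM factor, 0.282, and the undifferentiated libraries the highest, up to 5.59.

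The DNA at 9 of the sites is shown because they lie in the Runx1 TAD or nearest to genes of mesoderm and blood described below. Each line gives 60 bases of the mm9 reference (NCBIM37), 5′ to 3′ on the strand of its motif, and capitals mark the core CTCF motif searched for, CCANNAGNNGGC. The Runx1 P2 site has no full core, and there the capitals mark AGNNGGC, the end of the core. The sequences lie at chr16:92520234-92520293 (plus strand, Clic6), chr16:93544153-93544212 (minus, Setd4), chr16:93615907-93615966 (plus, Cbr1) and chr16:92699038-92699097 (plus, Runx1 P2). The others lie at chr11:104510015-104510074 (plus, Itgb3), chr11:102348436-102348495 (plus, Itga2b), chr17:8654609-8654668 (minus, T), chr13:53539080-53539139 (plus, Msx2) and chr2:103822551-103822610 (minus, Lmo2).
Clic6: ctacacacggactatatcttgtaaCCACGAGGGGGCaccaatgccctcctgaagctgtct
Runx1 P2: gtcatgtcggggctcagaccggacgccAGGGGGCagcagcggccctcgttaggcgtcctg
Setd4: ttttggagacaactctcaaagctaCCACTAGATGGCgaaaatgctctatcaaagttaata
Cbr1: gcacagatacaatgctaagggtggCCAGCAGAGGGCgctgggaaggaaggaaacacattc
Itgb3: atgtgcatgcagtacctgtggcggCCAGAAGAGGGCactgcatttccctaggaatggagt
Itga2b: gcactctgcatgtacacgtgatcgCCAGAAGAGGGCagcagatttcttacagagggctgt
T: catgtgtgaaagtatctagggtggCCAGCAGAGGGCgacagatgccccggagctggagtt
Msx2: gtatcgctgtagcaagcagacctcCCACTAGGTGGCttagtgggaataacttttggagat
Lmo2: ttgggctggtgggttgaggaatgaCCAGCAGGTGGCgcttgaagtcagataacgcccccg

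The sites were wider CTCF peaks than those in neither list and lay about as far from genes. Their CTCF peaks had a median width of 271 bp (interquartile range 231 to 311, range 140 to 899). Sites open at both stages had nearly the same median, 273 bp, and sites open in HPCs only 260 bp. Sites in neither list were narrower, with a median of 228 bp (interquartile range 179 to 276). The median distance to the nearest gene start was 23782 bp, with a 95% interval of the median from 22913 to 24660 bp. It was longer for sites open at both stages (33320.5 bp, interval 31666 to 34859 bp). Within 10 kb of a start lay 1854 of the sites (23.6%), and over 100 kb away lay 1177 (15.0%, against 21.7% of sites open at both stages). The farthest was 1.77019e+06 bp from any start. The member nearest to the limit of the rule lay 2000.5 bp from a start, and the nearest CTCF peak outside it 1998 bp. There were 307 sites at 2 to 3 kb and 300 mesoderm-only CTCF peaks at 1 to 2 kb.

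**Figure D1:**
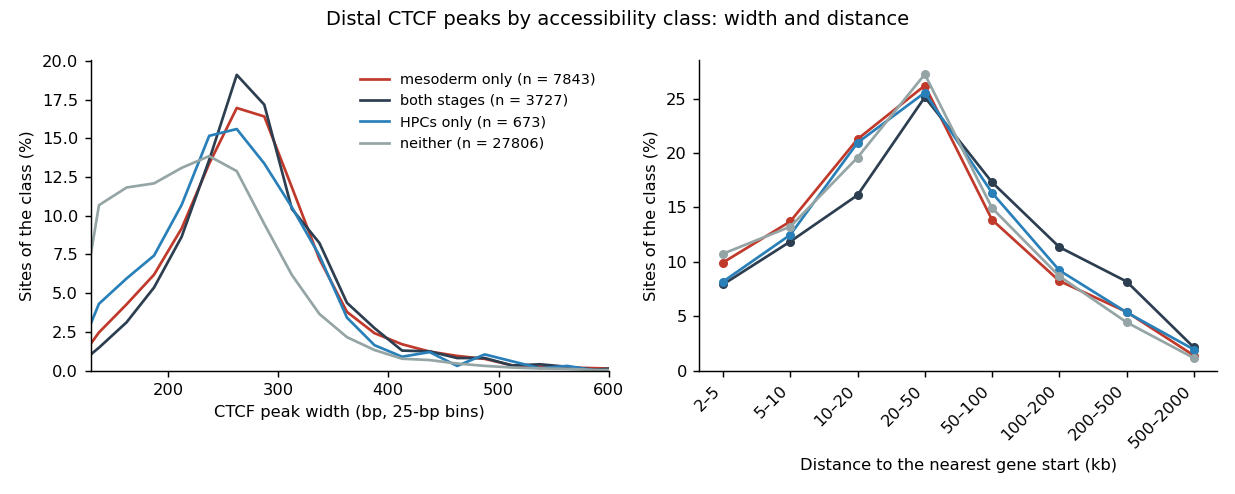
Left, width of the CTCF peak (bp, 25-bp bins) and right, distance from its midpoint to the nearest gene start (kb), as the percentage of each class of distal sites. Mesoderm-only sites (median 271 bp) follow the width of sites open at both stages (273 bp), whereas sites in neither list are narrower (228 bp), and sites open at both stages hold the larger share beyond 100 kb.

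By the GENCODE annotation of mm9, 4013 midpoints (51.2%) were intergenic, 3296 (42.0%) lay in an intron and 534 (6.81%) in an exon. The exonic share was 4.99% for sites open at both stages and 4.44% for sites in neither list. The span of a gene in the count table held 3669 of the sites (46.8%, 45.7 to 47.9%), fewer than of the sites in neither list (50.2%, 49.6 to 50.7%) and more than of those open at both stages (42.5%, 40.9 to 44.1%). The site lay upstream of its nearest start in 3473 cases (44.3%). That start belonged to the gene whose span held the site in 2152 cases (27.4%). The count table gives 1 start per gene, and 769 of the sites (9.80%) lay within 2 kb of another annotated transcript start, among them sites at Lmo2, Nfe2 and Runx1 P2.

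Along the genome, neighbouring sites were a median of 137316 bp apart. Another such site lay within 10 kb of 1161 of them (14.8%) and within 100 kb of 4923 (62.8%). Mesoderm-only distal ATAC-seq peaks without CTCF were also close, at a median of 22356 bp, with 2145 sites (27.3%) within 10 kb of one. The share of distal CTCF peaks that were open in mesoderm only ran from 16.4% on chromosome 5 (15.1 to 17.8%) to 23.1% on chromosome 15 (21.1 to 25.2%). Their density ran from 1.22 per Mb on chromosome X to 4.73 per Mb on chromosome 11.

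The rule required an overlap of the CTCF and ATAC-seq peaks, so their relative position is given as a description. The ATAC-seq peak at a site had a median width of 94 bp (interquartile range 69 to 126), and its midpoint lay a median of 28 bp from the midpoint of the CTCF peak. In 6932 cases (88.4%) the ATAC-seq peak fell wholly inside the CTCF peak. The smallest overlap was 2 bp, and 12 sites shared under 10 bp. At sites open at both stages the mesoderm ATAC-seq peak was wider, with a median of 131 bp (100 to 171). The nearest HPC peak was a median of 24445 bp away. It was within 500 bp of 115 sites (1.47%) and within 100 bp of 23, and at the closest site the peaks touched without overlap.

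Most distal CTCF sites open in mesoderm had no HPC peak, and the share fell as the mesoderm peak became wider. Of 11570 distal CTCF sites open in mesoderm, 67.8% (66.9 to 68.6%) had no HPC peak. Ordered by the width of the mesoderm ATAC-seq peak and split into 4 groups of near equal size, the group with the narrowest peaks (64 to 75 bp) had a share of 87.3% (86.0 to 88.4%). In the next groups it was 75.8% and 62.3%, and among the widest (141 to 799 bp) it was 45.8% (44.0 to 47.6%). The width of the CTCF peak showed no such gradient, with shares of 71.2, 65.4, 67.7 and 66.9% from the narrowest to the widest group. Over groups of increasing distance to a gene start the shares were 72.0, 71.5, 67.3 and 60.4%. For comparison, 85.1% of 45369 distal mesoderm ATAC-seq peaks without CTCF had no HPC peak, and 47.2% of 2305 open CTCF peaks within 2 kb of a start. The part of list depth in these shares was not tested.

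**Figure D2:**
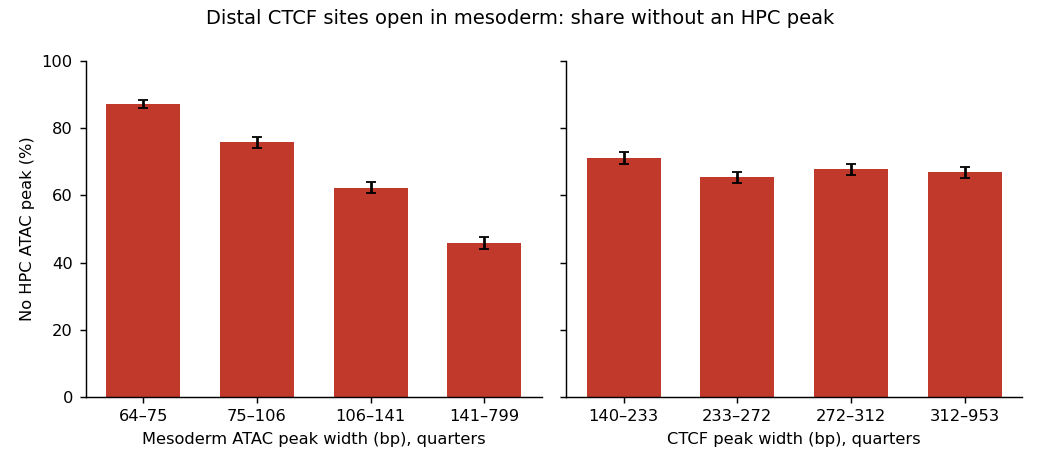
Share of mesoderm-open distal CTCF sites without an HPC ATAC-seq peak (%), by groups of mesoderm ATAC-seq peak width (bp, left) and of CTCF peak width (bp, right), with 95% Wilson intervals as error bars. The share falls from 87.3% at the narrowest to 45.8% at the widest ATAC-seq peaks and stays between 65.4 and 71.2% over CTCF peak widths.

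The sequence of the sites was compared with that of other CTCF peaks and of other mesoderm-only open chromatin. The core motif CCANNAGNNGGC, searched on both strands in 200 bases around the midpoint of the CTCF peak, was found in 3081 of the sites (39.3%, 38.2 to 40.4%). The share was 43.2% over all 44513 CTCF peaks, 36.0% at sites open at both stages, 37.9% at sites open in HPCs only and 47.5% (46.9 to 48.0%) at sites in neither list. In 38605 mesoderm-only distal ATAC-seq peaks without CTCF, with windows centred on the ATAC-seq peak, it was 1.97%. The sites were picked as CTCF peaks and these peaks for the lack of one. A difference in CTCF motifs between the 2 sets was thus built into their choice. Sites with 1 core numbered 3031, with 1522 on the plus and 1509 on the minus strand, and the core lay a median of 18 bp from the midpoint. The end of the core alone, AGNNGGC, chosen after the values were seen, was found in 75.8% of the sites, 74.8% of all CTCF peaks and 45.7% of the peaks without CTCF. It contains part of the core motif, so these counts overlap.

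The higher share at sites in neither list went with a single form of the core. The form was picked as the commonest over the distal sites of these same data. Setting it aside therefore had to lower most the class that holds most of its copies. CCAGAAGAGGGC, the commonest form, stood in 331 mesoderm-only sites (4.22%) and 80 sites open at both stages (2.15%), but in 5997 sites in neither list (21.6%, 21.1 to 22.1%). With sites holding this form set aside, the order turned round by a smaller margin: another core was found in 36.6% of the remaining 7512 mesoderm-only sites (35.5 to 37.7%) and 33.0% of the remaining sites in neither list (32.4 to 33.6%). At the remaining sites open at both stages the share was 34.5% (33.0 to 36.1%), an interval that overlaps both. Of the 6452 distal CTCF sites with the commonest form, 6.37% (5.80 to 6.99%) were open in mesoderm, against 35.1% of 11421 sites with another core and 32.2% of 22176 without a core. Among those that were open, the mesoderm-only share was 80.5% (76.4 to 84.1%) with the commonest form, 68.6% with another core and 66.6% without one. The form is known as background from the CTCF motifs carried by rodent B2 repeats, and the overlap of the sites with repeats was not analysed here. Both integrin sites shown above, at Itgb3 and Itga2b, carry it. Next among mesoderm-only sites with 1 core came CCAGCAGAGGGC (7.32%), as at Cbr1 and T, and CCACCAGGGGGC (6.53%), whereas CCACTAGAGGGC led at sites open at both stages (7.24%).

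Motifs of other factors were rarer at these sites than in mesoderm-only open chromatin without CTCF, with RUNX an exception. The GATA motif AGATAA was found in 7.74% of the sites and 23.7% of the peaks without CTCF. The TEAD motif ACATTCC was at 2.95 and 9.23%, the FOX motif TGTTTAC at 2.24 and 5.76%, the AP-1 motif TGAGTCA at 3.37 and 6.89%, the MEIS motif TGACAG at 14.2 and 20.9%, and the octamer ATGCAAAT at 0.893 and 2.13%. The RUNX motif TGTGGT went the other way, with 17.3% (16.5 to 18.2%) against 15.6% (15.3 to 16%), and stood at 22.2% in sites in neither list. The ETS motif CCGGAA (3.09 and 3.12%) had overlapping intervals. The T-box motif GGTGTGA was in 3.01% of the sites (2.65 to 3.41%) and 5.31% of the peaks without CTCF, and in 2.33% (1.90 to 2.87%) of sites open at both stages. The E-box CATCTG stood at 18.3 and 20.0%. Median GC content was 50% at the sites, 48.5% at sites open at both stages, 45.5% at sites in neither list and 51% in the peaks without CTCF. A match is a run of letters and no measure of binding.

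**Figure D3:**
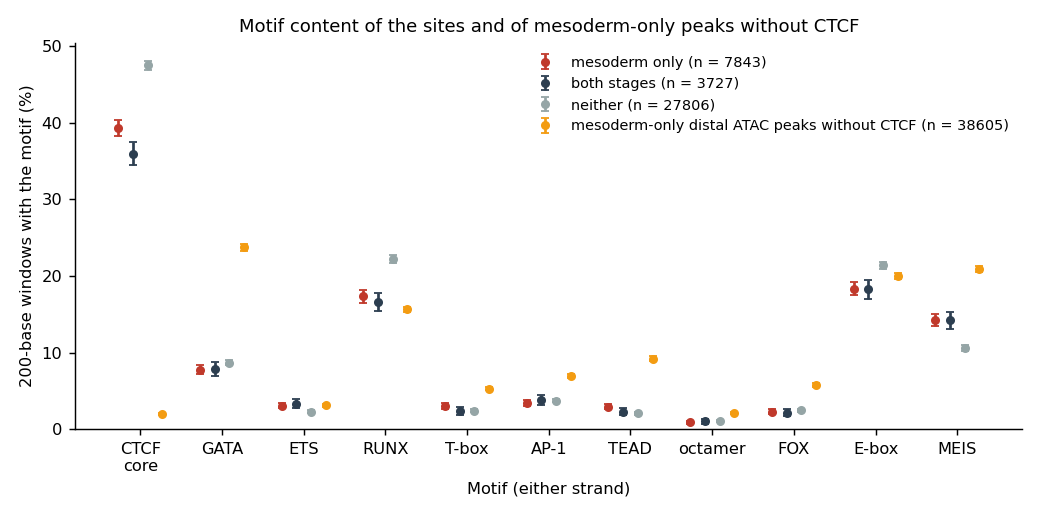
Share of 200-base windows (%) that hold each motif on either strand, for mesoderm-only, both-stage and neither-list distal CTCF sites and for mesoderm-only distal ATAC-seq peaks without CTCF, with 95% Wilson intervals. The CTCF core is in 39.3, 36.0, 47.5 and 1.97% of the windows, and GATA is in 7.74% of mesoderm-only sites against 23.7% of the peaks without CTCF.

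The 1.12 Mb Runx1 TAD held 5 of the sites. It has 30 CTCF peaks, of which 29 are distal, with 5 open in mesoderm only, 3 open at both stages, 0 in HPCs only and 21 in neither list. At the centromeric end, a site in an intron of Clic6, an intracellular chloride channel gene (chr16:92520100-92520360, 261 bp), holds a core on the plus strand. A second site lies 67705 bp from the start of Clic6 (chr16:92565952-92566240) and has no core. At the telomeric end, the site at chr16:93544078-93544427 lies 59807.5 bp from the start of Setd4, a histone methyltransferase family gene, with its core on the minus strand. The last lies 7856 bp from the start of Cbr1, a carbonyl reductase gene (chr16:93615766-93616108), with its core on the plus strand.

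The remaining site is at the Runx1 P2 promoter. Its CTCF peak (chr16:92698817-92699340) is 524 bp wide and lies in a Runx1 intron, 1505.5 bp upstream of an annotated P2 transcript start at position 92697573. It entered as distal because the count table places the Runx1 start at P1, 127240 bp away. GC content was 67% over 200 bases with 16 CpG dinucleotides, and a mesoderm ATAC-seq peak of 87 bp lay inside the peak. The nearest HPC peak was 1043 bp away. The paper lists an accessible peak at the P2 promoter in all the cell types it compared, so the lack of an HPC peak concerns the CTCF peak and not the promoter. It is the only listed CTCF peak within 10 kb upstream of P2, the next being 11510 bp away. The CTCF peak 2066 bp upstream of P1 (chr16:92828270-92828500) was open at both stages, as was one 24317 bp downstream of the P1 start (chr16:92801753-92802251). The latter lies inside the +23 enhancer as the paper places it, which the reporter transgene also carries. The part of the transgene copy in its ATAC-seq reads was not tested.

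The sites spread over many genes. For 5955 genes a site lay nearest to their start, with 1 site for 4518 genes, 2 for 1101 and 3 or more for 336. The spans of 3007 genes held a site. Gm30214, a predicted gene, was nearest to 15 sites in 846 kb (chr14:53411567-54257637), an interval with 26 annotated T cell receptor alpha or delta genes. Gm30214 was also nearest to 13 sites open at both stages and 24 in neither list, and its own counts were too low for a test. Col22a1, a collagen gene, and Fez1, an axonal transport gene, had 7 sites each. Golim4 (a Golgi membrane protein) and Rasgrp1 (a Ras exchange factor of lymphocytes) had 6 each. Of 17 genes with 5 sites, Mgst2, Cistr, Smug1, Psd3 and Ccnl1 had the smallest median distances and complete the first 10. Bmper, described below, also had 5 sites and was called lower in HPCs. Among the first 10 genes 7 could be tested, and of these Col22a1 alone was called between HPCs and mesoderm. Its 4 HPC libraries had no count, against 1.02, 0.327 and 0.404 CPM in mesoderm (B9.3, C6.1 and C8.1), at least 6.01-fold lower.

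Expression near the sites was compared between HPCs and mesoderm, of which only mesoderm had a called ATAC-seq peak at the sites. Of the 5955 nearest genes, 3380 had enough counts to be tested with edgeR's quasi-likelihood test among 12899 genes. At an adjusted p under 0.05 and over 2-fold, 420 (12.4%) were higher in HPCs, with 10.8% of all tested genes as background, and 518 (15.3%) were lower, with 12.5% as background. Genes nearest to sites open at both stages had 13.5% higher and 15.0% lower, and genes nearest to sites in neither list 12.4 and 13.7%. The 2637 tested genes with no HPC-open distal CTCF site nearest to them had 11.7 and 14.6%. Each class of CTCF site thus had shares above those of all genes. The median log2 fold change of the genes nearest to mesoderm-only sites was -0.05, against -0.01 for all genes. The clone is shared by mesoderm and HPC libraries, and with the clone as a block 594 of 1995 tested nearest genes were called (285 higher, 309 lower), or 29.8% against 24.7% of all genes in that fit. Without the block the same libraries gave 618 (295 and 323), or 31.0% against 26.4%. In bulk RNA, fewer cells of a type and less RNA per cell cannot be told apart.

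The share of called genes rose with the distance of the site, as did the length of the genes. Genes with a site within 10 kb had 9.49% higher and 12.2% lower in HPCs, close to or under the background. With a site at 10 to 50 kb the shares were 13.2 and 14.7%, at 50 to 100 kb 14.8 and 16.7%, and beyond 100 kb 14.2 and 22.1%. Median gene length rose over the same groups, from 17.9 to 30.6, 69.2 and 123 kb, against 25.7 kb for all tested genes. Genes whose span held a site, with a median length of 65.1 kb, had 14.9% higher and 18.0% lower. Genes nearest to 3 or more sites had 12.3% higher and 19.6% lower. The part of gene length, which brings more intronic reads to longer genes, was not tested.

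**Figure D4:**
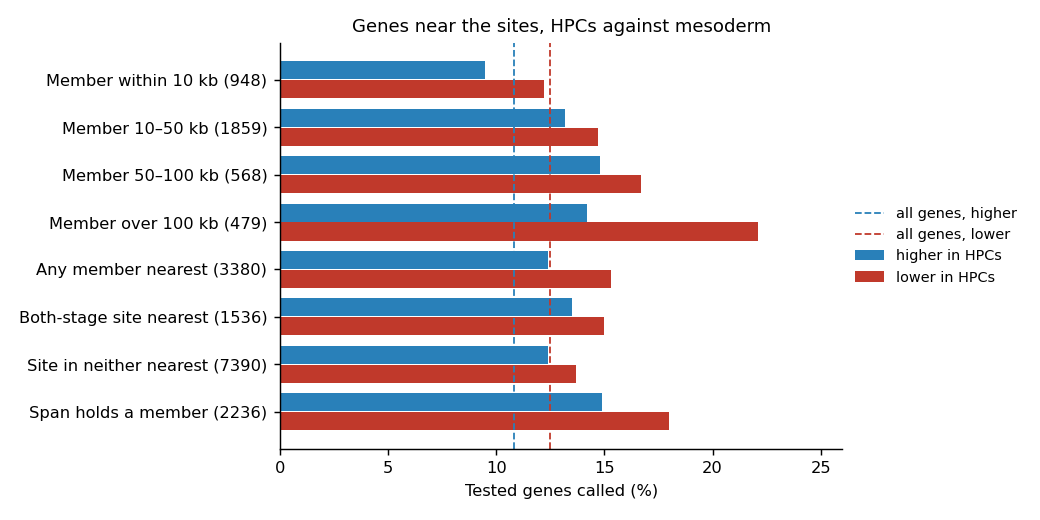
Share of tested genes (%) called higher (blue) or lower (red) in HPCs than in mesoderm by edgeR, for genes grouped by their nearest site, with the number tested in parentheses and the shares over all genes as dashed lines (10.8 and 12.5%). A member is a distal CTCF site open in mesoderm only, and the share lower rises from 12.2% with such a site within 10 kb to 22.1% beyond 100 kb.

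Genes of early mesoderm that had a site nearby fell in HPCs. Of 18 listed genes 7 were nearest to a site, and all 4 that could be tested were lower: T, Kdr, Pdgfra and Snai1. Over the whole list 9 of 9 tested genes were lower, so those near sites did not stand apart. T (brachyury), the T-box factor of the primitive streak, had a site with a core 27.4 kb downstream. It was at 0.235, 2.62 and 0.404 CPM in mesoderm (in the order B9.3, C6.1, C8.1) and was at 0 in all 4 HPC libraries, at least 11.2-fold lower, and its call was lost without any of 3 HPC libraries or mesoderm C8.1 (adjusted p from 0.050 to 0.076). Snai1, a repressor of epithelial adhesion genes, was at 1.25, 2.62 and 1.70 CPM in mesoderm and likewise at 0 in HPCs, at least 19.1-fold lower.

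Kdr, the VEGF receptor Flk1 by which mesoderm was sorted, had its site 116 kb away and was at 51.1, 36.2 and 22.7 CPM in mesoderm. In the 4 HPC libraries (B9.3, B9.3-2, C6.1 and C8.1) it was at 15.0, 6.72, 3.72 and 9.98 CPM, below every mesoderm library (log2 fold change -2.04, SE 0.39, adjusted p = 0.0027 by edgeR). Pdgfra, a receptor of paraxial and cardiac mesoderm, had its site inside the gene, 349 bp from an annotated transcript start. It was at 7.45, 11.8 and 7.91 CPM in mesoderm and at 0.694, 0, 0 and 0 CPM in HPCs (log2 fold change -5.51, SE 0.73, adjusted p = 0.00024). Among lateral, cardiac and paraxial genes 7 of 24 were nearest to a site. Of these 2 were tested and 1 was lower in HPCs, with 7 of 10 tested genes lower over the whole list. Msx2, a homeobox factor, was lower in HPCs (0.941, 4.42 and 3.47 CPM against 0, 0, 0 and 0.224 CPM, a ratio of counts of 40.5 with an interval of 10.9 to 340).

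Blood genes near the sites mostly rose in HPCs. Of 36 listed genes of blood and endothelium 16 were nearest to a site and all were tested, with 10 higher and 2 lower in HPCs, and 16 and 4 of 31 over the whole list. Runx1 itself, which is required for blood formation from endothelium, was at 5.41, 17.0 and 20.8 CPM in mesoderm (same order) and at 125, 101, 117 and 182 CPM in HPCs (log2 fold change 3.19, SE 0.43, adjusted p = 0.00026). Every HPC library was above every mesoderm library. The CTCF peak upstream of P2 overlapped no called HPC peak, whereas the paper lists a peak at the P2 promoter itself in HPCs. Itga2b and Itgb3 encode the chains of the platelet integrin. Itga2b, with its site 17.3 kb upstream in an intron of Gpatch8, was at 1.41, 0.655 and 1.61 CPM in mesoderm and at 55.1, 27.2, 25 and 45.6 CPM in HPCs (log2 fold change 4.88, SE 0.40, adjusted p = 1.7e-05). Itgb3, with a site in its own intron, was at 0.314, 0 and 0.807 CPM and at 153, 59.6, 70.2 and 151 CPM (7.96, SE 0.64, adjusted p = 1.6e-05).

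Among transcription factors of blood, Gfi1b is a transcriptional repressor that acts in the erythroid and megakaryocytic lineages. It was at 0, 0.655 and 0.323 CPM in mesoderm and at 11.8, 9.65, 6.51 and 6.62 CPM in HPCs (log2 fold change 5.0, SE 0.60, adjusted p = 0.00018 by edgeR). Lmo2, an adaptor of the Tal1 complex, had 2 sites, 1 of them 13 bp from an annotated transcript start, and was at 1.65, 1.31 and 1.29 CPM and at 9.03, 5.52, 5.45 and 7.85 CPM (2.29, SE 0.33, adjusted p = 0.00039). Nfe2, a megakaryocytic and erythroid factor with a site 13.5 bp from such a start, was at 0, 0 and 0.404 CPM and at 4.98, 4.14, 3.85 and 5.49 CPM (4.84, SE 0.64, adjusted p = 0.00026). In these genes the HPC libraries lay above all mesoderm libraries. Meis1 (3.17) and Lyl1 (2.37), whose row overlaps that of Nfix, were also higher on the log2 scale. Fli1 (1.76, adjusted p = 0.041) lost its call without any of 6 libraries and with the clone as a block (adjusted p = 0.058). Spi1 had 1 count in mesoderm and 26 in HPCs, a ratio of 26.3 with an interval of 4.32 to 1078, and its call was lost without mesoderm C8.1 (adjusted p = 0.058).

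The remaining genes of the list fell or were not called. Cdh5 fell by 3.18 on the log2 scale (SE 0.98, adjusted p = 0.031), but without the mesoderm library of clone B9.3 its log2 fold change was -0.54 (adjusted p = 0.58), and its call was also lost without HPC B9.3, C6.1 or C8.1 (adjusted p from 0.050 to 0.083). Ets1 fell by 1.27 (adjusted p = 0.026) and without that library its log2 fold change was -0.61 (adjusted p = 0.16), and its call was also lost without HPC C6.1 (0.069) or C8.1 (0.054). Pecam1 (0.75, adjusted p = 0.40), Tek (-1.38, adjusted p = 0.24), Flt1 (-0.24, adjusted p = 0.78) and Hhex (0.02, adjusted p = 1.0) were not called. Tek, a receptor of angiopoietins, was at 28.2 CPM in mesoderm B9.3 and at 0.819 and 2.99 CPM in the other mesoderm libraries.

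Signalling genes near the sites fell where they changed. Of 46 listed ligands, receptors and inhibitors 19 were nearest to a site, 14 were tested, and 9 were lower and 0 higher in HPCs by edgeR. Over the whole list 26 of 39 tested genes were lower and 0 higher. Among targets and feedback inhibitors, Axin2, a target of Wnt signalling, was at 2.35, 14.7 and 12.9 CPM in mesoderm and at 0.579, 0.517, 0 and 0.224 CPM in HPCs (log2 fold change -4.91, SE 0.72, adjusted p = 0.00048). Dusp6, a feedback phosphatase of FGF signalling, changed by -1.98, and its call was lost without mesoderm B9.3 (adjusted p = 0.081). The BMP and activin receptors Bmpr1a, Acvr1 and Acvr2a were each lower. Bmpr1a, with its site in an intron, changed by -1.69 (9.56, 16.9 and 16.1 CPM against 5.32, 2.07, 5.18 and 4.71 CPM), and Acvr1, also with an intronic site, by -1.93. Acvr2a, whose row overlaps that of Orc4, changed by -1.28, but its nearest site lay 1028 kb from its start. Tgfbr2 was not called (-0.98, adjusted p = 0.23).

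Of the ligands, Fgf3 was at 0.235, 2.46 and 1.94 CPM in mesoderm and at 0 in HPCs, at least 15.9-fold lower. Wnt5a, 416 kb from its site, changed by -2.17 (adjusted p = 0.0073). Wnt2 changed by -2.14 (adjusted p = 0.041) and lost its call without any of 5 libraries (adjusted p from 0.062 to 0.11). Bmper, a secreted BMP modulator with 5 sites, was at 0.392, 16.2 and 4.92 CPM in mesoderm and at 0.231, 0.517, 0 and 1.23 CPM in HPCs (-3.72, adjusted p = 0.018). Its call was lost without mesoderm C6.1 (adjusted p = 0.100) and with the clone as a block (adjusted p = 0.074).

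Of the 10 listed pluripotency genes 4 were nearest to a site. In HPCs 2 of these were lower, with 3 of 10 tested genes lower over the whole list. Esrrb was at 0.470, 0 and 0.323 CPM in mesoderm and at 0 in HPCs, at least 2.72-fold lower, and its call was lost without mesoderm B9.3 (adjusted p = 0.060) or C8.1 (adjusted p = 0.058). Klf4 (-2.75, adjusted p = 0.021) lost its call without mesoderm B9.3 (adjusted p = 0.092). Markers of other lineages were low: the 9 neural and endoderm genes summed to at most 0.327 CPM in mesoderm and 0.116 CPM in HPCs, and the pluripotency list to at most 3.29 and 0.810 CPM. Of the 12 genes of CTCF and cohesin, Ctcfl and the cohesin loader Nipbl were nearest to a site. Nipbl was not called (0.31, adjusted p = 0.26).

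The 12 genes within 100 kb with the smallest adjusted p among those that rose included Adgrg1, an adhesion receptor known from hematopoietic stem cells. It was at 0.862, 0.327 and 0.565 CPM in mesoderm and at 24.2, 21.4, 23.5 and 26.3 CPM in HPCs (log2 fold change 5.24, SE 0.29, adjusted p = 2.9e-06), with its site in an exon 3020 bp from an annotated transcript start. Tspan32, a tetraspanin of blood cells, had 2 sites with a core and was higher by 6.28 (SE 0.35). Smox (spermine oxidase) was higher by 5.85, Uba7 (the ISG15-activating enzyme) by 5.54, Traf5 by 5.24, Dap by 4.04, Atp8a1 (a phospholipid flippase) by 3.89 and Ehbp1l1 by 3.19, all on the log2 scale. Ache, acetylcholinesterase, had 1 count in mesoderm and 312 in HPCs, and Slc25a21, a mitochondrial carrier whose row overlaps that of Pax9, had 2 and 1861. The ratios, scaled for library size, were 316 (56.2 to 12508) and 941 (260 to 7780). Itga2b and Itgb3 complete the 12.

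Among the 12 that fell, Lin28a, an RNA-binding protein that blocks let-7 maturation, had 2 sites, with the nearer in its own intron. It was at 8.0, 16.4 and 16.1 CPM in mesoderm and at 0.463, 0.172, 0 and 0 CPM in HPCs (log2 fold change -6.34, SE 0.56, adjusted p = 2.5e-05). Notch3, a Notch receptor with a site in an exon, was at 9.09, 15.2 and 24.6 CPM and at 0.694, 0.345, 0 and 0.449 CPM (-5.39, SE 0.52, adjusted p = 3.7e-05). Nectin1, a cell adhesion molecule, was at 3.61, 5.89 and 6.70 CPM and at 0.231, 0.172, 0.133 and 0.224 CPM (-4.76, SE 0.39, adjusted p = 1.7e-05). Gpc1 (a glypican, -4.35), Fignl2 (-4.13), Sall3 (a zinc finger factor, -4.02), Zfp703 (-3.85), Sntb2 (-3.46), Mtap (-2.68) and Zfyve9 (-2.56) were lower on the log2 scale. Rims2 and Grid1, known from synapses, had 3 counts each in HPCs, with ratios of 64.9 (21.9 to 317) and 66.2 (22.3 to 324). The annotated spans of Gpc1, Grid1, Cdh5 and Pdgfra overlap Mir149, Mir346, Gm29682 and Mir7025 in this order, and the reads of such pairs could not be separated.

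**Figure D5:**
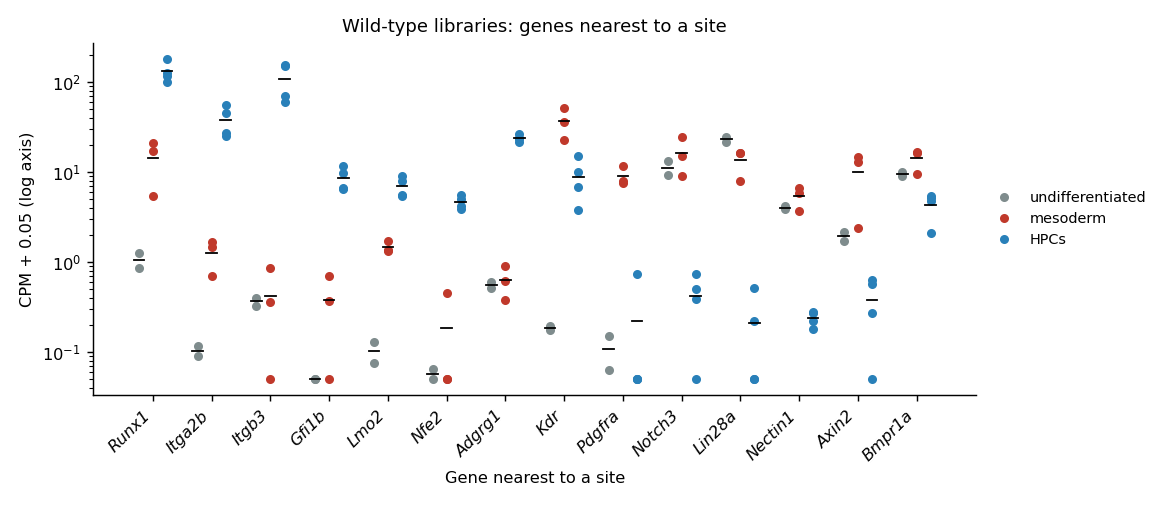
CPM + 0.05 (log axis) of 14 genes nearest to a site in each wild-type library, with black bars at the group mean. A value of 0 is drawn at 0.05. In Runx1, Itga2b and Gfi1b all HPC libraries lie above all mesoderm libraries, and in Kdr, Notch3 and Nectin1 all lie below.

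In the Runx1 TAD, Setd4 was at 0.706, 0.491 and 0.565 CPM in mesoderm and at 0.463, 1.21, 0 and 0.336 CPM in HPCs and was not called (-0.37, adjusted p = 0.74). Cbr1 was at 0.314, 0.491 and 0.161 CPM and at 0.347, 0, 0.266 and 0.336 CPM (-0.19, adjusted p = 0.89). Clic6 was at 0.235, 0.982 and 1.13 CPM and at 0, 0, 0.133 and 0 CPM, a ratio of counts of 22.7 with an interval of 3.69 to 936.

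Expression in mesoderm was also compared with that in undifferentiated mESCs. The rule did not use accessibility in mESCs, so whether the sites were already open there is not known from it. In the Runx1 TAD, the paper lists open chromatin over the Setd4 and Cbr1 sites in undifferentiated cells as well as in mesoderm. Of the 3380 tested genes, 445 (13.2%) were higher in mesoderm, with 10.7% of all genes as background, and 481 (14.2%) lower, with 13.7%. By DESeq2 the counts were 461 and 344 (23.8% in all, against 20.7% of all genes), and over all genes the balance turned as well (1453 higher, 1216 lower). Genes with a site beyond 100 kb had 24.2% higher and 12.9% lower, and those with a site within 10 kb 9.60 and 16.5%. Of the 16 blood and endothelial genes 13 were higher and 0 lower by edgeR (23 and 0 of 31 over the whole list). Without mesoderm B9.3, Meis1 (0.59, adjusted p = 0.49), Tek (0.97, adjusted p = 0.27) and Hhex (1.63, adjusted p = 0.20) lost their call. All 4 tested early mesoderm genes were higher (8 higher and 1 lower of 9 over the whole list), as were 7 of the 14 signalling genes (19 higher and 5 lower of 39), and 3 of the 4 pluripotency genes were lower (9 of 10). Runx1 was at 1.21 and 0.811 CPM in the undifferentiated libraries (log2 fold change 3.82, SE 0.54, adjusted p = 0.00058). Ribosomal RNA depletion is named in the methods for undifferentiated mESCs and not for mesoderm, so stage and library preparation cannot be told apart. The calls also rested on both undifferentiated libraries, and without either one the 926 called genes became 325 without the first (9.71%, against 8.52% of all genes) and 313 without the second (8.88%, against 8.15%). Among the listed genes nearest to a site, T, Nfe2, Axin2, Meis1, Hhex, Tek, Bmper, Acvr1, Fgf3 and Otx2 lost their call without either one. Gfi1b and Flt1 lost it without the first and Tgfbr2 without the second.

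Deletion of the CTCF site at P2, itself one of the sites by its position, was compared in mesoderm, where the sites are open. Of 2380 nearest genes tested, 0 were called by edgeR, with a background of 0% higher and 0.0342% lower (3 of 8778 genes). At an unadjusted p under 0.05 there were 437 (18.4%, against 16% of all genes), and the smallest adjusted p was 0.070. By DESeq2 69 were called, 12 higher and 57 lower (2.90%, against 1.89% of all genes). Without the wild-type library of clone C6.1 edgeR called 54 (2.14%, against 1.37% of all genes), and without that of B9.3 it called 2 (0.0809%, against 0.0765%). In this fit Runx1 was at 2.87, 9.15 and 11 CPM in wild-type mesoderm and at 1.47, 5.5 and 4.89 CPM in P2-CTCF-KO (log2 fold change -0.96, SE 0.58, adjusted p = 0.45), with overlapping groups. None of the 5 tested early mesoderm genes and 11 tested blood and endothelial genes near sites was called by edgeR, with median log2 fold changes of 2.05 and -2.43. The paper, which used DESeq2, reports T, Pecam1 and Flt1 of these genes as changed in P2-CTCF-KO mesoderm. Over the whole lists, the medians were 2.76 over 11 genes, with 0 called, and -2.52 over 23, with 1 called lower. Their part in the values of other genes was not tested. Snai1 was at 0.666, 1.41 and 0.894 CPM in wild-type and at 5.22, 2.79 and 3.71 CPM in P2-CTCF-KO mesoderm, groups that did not overlap (2.05, SE 0.32, adjusted p = 0.070). Setd4 was not called either (0.83, adjusted p = 0.46), and Clic6 and Cbr1 had too few counts.

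Deletion of the P1 site, which was open at both stages, gave 0 called of 2380 by edgeR, with a background of 0% higher and 0% lower, and 0 by DESeq2. At an unadjusted p under 0.05 there were 48 genes (2.02%, against 1.91% of all genes). Runx1 was at 6.68, 8.06 and 2.58 CPM in P1-CTCF-KO (log2 fold change -0.39, SE 0.56, adjusted p = 1.0). The 2 genotypes share the wild-type libraries, and their difference was not tested.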

How the data were processed

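The authors deposited whole-number read counts per gene (STAR, mm9, PCR duplicates removed, featureCounts over exons and introns, no normalization), and the annotation and strand setting are not given in the sources used here. The deposited peak lists give start and end only (other values), called by the authors with MACS2 on merged reads, and the CTCF list at p 0.02 against input. Gene starts came from 24961 of 25146 count table entries, leaving out 135 at several loci and 50 that span over 2.5 Mb. Windows of 200 bases were read from the mm9 genome, and shares carry 95% Wilson intervals that cover counting error only. The test of the counts was edgeR 4.0.16 under R 4.3.3 (TMM, filterByExpr with a minimum count of 10, quasi-likelihood test, Benjamini-Hochberg over all genes tested), checked on simulated data. DESeq2 1.42.0, RLE size factors, no filter, other assignments, other distances and overlaps, a clone block and each library left out were alternatives.

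CPM are per TMM-scaled library and compare within a fit only. For a group without any count, the bound used 3 counts over the group. Where a group had 1 to 3 counts, a ratio of counts with an exact 95% interval is given. Wild-type stages were fitted over 9 libraries and mesoderm genotypes over 9. All columns were mapped to samples. The members and gene lists were chosen with earlier results of these data known. Named genes were those nearest to a site in the Runx1 TAD, the 10 with the most sites, the 12 higher and 12 lower in HPCs with the smallest adjusted p within 100 kb, the listed genes nearest to a site and up to 5 per direction called in a genotype, of which there were none, and 1 listed gene is not reported here. Clones pair mesoderm with HPC libraries by their labels, and the deviations of a pair from the group means correlated at 0.2009 in C6.1, -0.0909 in C8.1, and 0.1006 and -0.1417 in B9.3. The main fits have no block, and the blocked count stands beside the main one.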

Additional observations from a re-analysis of the deposited data

Results flagged for a closer look

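Dixon's 95% criterion on the gap over the range was applied to the 4 HPC libraries in 76 named genes and markers tested between stages. In 11 of them, all nearest to a site, 1 library lay far from the others. The 76 include the markers Eomes, Tal1 and Kit, to which no site was nearest. Chance flags about 1 in 20 groups of continuous values. Where all the others are at 0, the gap over the range is 1 whatever the remaining value. That was so for Clic6, Rasgrp1, Pdgfra, Msx2 and Dll3, and the rate of 1 in 20 does not apply to them. The HPC library of clone B9.3 was highest for Pdgfra (0.694 CPM, others at 0), Tek (8.1 CPM, others 2.52 to 3.28), Ror1 (6.25 CPM, others 0.517 to 1.46) and Dll3 (0.116 CPM, others at 0). The second B9.3 library was highest for Cdh5 (3.28 CPM, others 0.897 to 1.20) and Rasgrp1 (0.172 CPM, others at 0). The C8.1 library was highest for Vegfc (6.73 CPM, others 0.690 to 1.46), Sall3 (1.01 CPM, others 0.345 to 0.399) and Msx2 (0.224 CPM, others at 0). The C6.1 library was highest for Clic6 (0.133 CPM, others at 0) and lowest for Zfp703 (0.133 CPM, others 0.336 to 0.347). Values of 0.116, 0.133 and 0.172 CPM each stand for 1 read.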

How the results depend on the processing

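Using ATAC-seq peaks at or above the median width of their list left 4025 sites, of which 2714 were among the 7843, with a median CTCF width of 277 bp and a median distance of 25384 bp. CTCF peaks at or above the median width gave 295 bp, 21673 bp and a core share of 42.8%. The median distance was 22149 bp with sites over 1 kb from a start, 28023 bp over 5 kb and 25296 bp over 2 kb from every annotated transcript start (added after the data were seen). The core share was 35.3% in 100-base and 40.9% in 400-base windows. The repeat share of the sites was planned but not run, since the genome is not masked.

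For HPCs against mesoderm, 594 nearest genes were called with the clone as a replicate block and 618 without a replicate block in the same 7 libraries (the second added after the data were seen), where 1995 rather than 3380 nearest genes passed the filter. Leaving out a library gave 739 to 998. For mesoderm against undifferentiated mESCs it gave 313 to 1008 (325 and 313 without an undifferentiated library), for P2-CTCF-KO 0 to 54 and for P1-CTCF-KO 0 to 0. P2-CTCF-KO calls numbered 69 by DESeq2 (2.90%, against 1.89% of all genes) and 161 (35 higher, 126 lower) without a filter (3.6%, against 2.49%). Among named genes called between HPCs and mesoderm, 741 values under alternatives kept their call and 31, in 10 genes, lost it. Between mesoderm and undifferentiated mESCs 64 values in 22 genes lost it, and Nfe2 turned to -1.77 without mesoderm C8.1. Nfe2 was at 0.404 CPM in mesoderm C8.1 and at 0 in B9.3 and C6.1, so without C8.1 it had no mesoderm count. No other called value of a named gene changed direction. With 1 undifferentiated library left, that library is assumed to vary like the other groups. Peak lists without heights or replicates limit every statement on loss of accessibility.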
